A study of Homo sapiens with 38 samples.

Results

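Wnt/beta-catenin target genes were followed in HCT116 cells, a human colorectal carcinoma line, by RNA-seq of cytoplasmic and nuclear RNA. The members were the 10 genes AXIN2, LGR5, ASCL2, NKD1, RNF43, ZNRF3, TCF7, LEF1, MYC and SP5, taken by name from the 58425 genes with a matched transcript, with the reads and TPM of all their transcripts summed. Of the 10, 7 passed the low-count filter in both fractions and 3 did not. The samples compared were wild-type cells (passages 27, 28 and 29) and lines labelled knockout for AGO1 (passages 6, 7 and 8), AGO2 (8, 9 and 10), AGO1/2 (9, 10 and 11) and AGO1/2/3 (11, 12 and 14), with 3 libraries for each genotype in each fraction. No drug or ligand was given to any of them. Argonaute proteins carry microRNAs to their target RNAs, and the libraries ask what their loss does to RNA levels on either side of the nuclear envelope. Each knockout was 1 edited line, and its passages did not overlap those of the wild-type cells, so clone, passage and genotype cannot be told apart.

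In canonical Wnt signaling, beta-catenin escapes a cytoplasmic destruction complex, enters the nucleus and works with TCF/LEF factors on target promoters. HCT116 cells carry an activating mutation of beta-catenin, so this output is on without added ligand. Many targets feed back on the pathway: AXIN2 is a scaffold of the destruction complex, NKD1 binds Dishevelled, and RNF43 and ZNRF3 remove Frizzled receptors from the cell surface. TCF7 and LEF1 are the DNA-binding partners themselves, MYC and SP5 are transcription factors, and LGR5 and ASCL2 mark intestinal stem cells.

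AXIN2 lies on the minus strand at chr17:65528563-65561648 of GRCh38, RNF43 on the minus strand at chr17:58353676-58417595, NKD1 at chr16:50548396-50649249, ZNRF3 at chr22:28883572-29057488, TCF7 at chr5:134114681-134151865 and SP5 at chr2:170715337-170718078, the last 4 on the plus strand. The RefSeq promoter table (GRCh38.p14, 250 bases before to 50 after each gene's start) held promoters for 4 of the members, SP5, TCF7, RNF43 and LEF1. They were searched on both strands for 4 TCF/LEF motifs of 7 bases, the motif CTTTGAA and the related motif CTTTGAT along with the variant forms CTTTGTA and, last, CTTTGTT, and no match overlapped another. SP5, which rose most in the multiple knockouts, had 3 matches within 300 bases, and 0.179% of the 35116 promoters had 3 or more. At least 1 match was found in 13.75% of all promoters. They stand 148, 109 and 84 bases before the SP5 start, in the windows chr2:170715179-170715205, chr2:170715218-170715244 and chr2:170715243-170715269, and TCF7 had 1 match, in chr5:134123558-134123584 on the plus strand, 50 bases before an internal start. The motif is in capitals, read on the plus strand, so that TTCAAAG is the first motif and AACAAAG the last one, both on the minus strand.
SP5 at 148: gctttgtggaTTCAAAGgatttgcttt
SP5 at 109: agccgctattCTTTGATgattgggtag
SP5 at 84: agcggcaaacTTCAAAGccataaatct
TCF7 at 50: gccccactggAACAAAGgaggagagag
The promoter windows of RNF43 and LEF1 did not hold these letters. A match is a description of the letters, and no binding was measured here.

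Because Argonaute proteins read 3' UTRs through the microRNA seed, the MANE Select 3' UTR of each member was searched for the 7-base complement of bases 2 to 8 of 5 microRNAs much studied in colon cancer, let-7a-5p, miR-17-5p, miR-21-5p, miR-34a-5p and miR-200b-3p. The match to miR-34a-5p, CACTGCC, was found in 5 of the 10 members, AXIN2, TCF7, NKD1, LGR5 and LEF1, with 1 site in each. Among 3' UTRs within 25% of the same length, 17.24% held it at the length of AXIN2, 20.28% at that of TCF7, 57.14% at that of NKD1, 18.57% at that of LGR5 and 14.99% at that of LEF1. Each of the other 4 matches was found in 1 member, those of let-7a-5p, miR-21-5p and miR-200b-3p in the long 3' UTR of NKD1, where 58.24%, 59.34% and 75.82% of such 3' UTRs held them, and that of miR-17-5p in TCF7 (25.55%). The mature microRNA, from RefSeq, is shown with its seed in capitals, followed by the sites in the 3 members that were detected, at chr17:65529123-65529145 (minus strand), chr5:134146885-134146907 and chr16:50637775-50637797 (plus strand), with the match in capitals.
miR-34a-5p: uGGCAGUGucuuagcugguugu
AXIN2: gctagaatCACTGCCgctgtgct
TCF7: ccatccccCACTGCCacaccctc
NKD1: gcagttgcCACTGCCccatcccc
None of the 5 matches was found in the 3' UTRs of RNF43, ZNRF3, MYC, SP5 or ASCL2.

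Libraries held 39476205 to 43281746 estimated reads in cytoplasmic RNA of wild-type cells and 66451720 to 79731793 in that of the knockout lines, against 20431557 to 26536692 and 31252459 to 54097984 in nuclear RNA. The wild-type libraries were thus the shallower in both fractions. RNA of AGO1 fell in all lines labelled as lacking it (log2 fold change -3.49 ± 0.07, -3.19 ± 0.07 and -3.29 ± 0.07 (SE) in cytoplasmic RNA of the lines labelled AGO1, AGO1/2 and, last, AGO1/2/3). RNA of AGO2 fell in the line labelled AGO2 knockout in both fractions (-0.67 ± 0.07 and -0.47 ± 0.08). In the line labelled AGO1/2 knockout it was 0.31 ± 0.07 in cytoplasmic RNA on counts but -0.30 on the TPM scale, and -0.18 ± 0.08 (not called) and -0.62 in nuclei. In the line labelled AGO1/2/3 knockout it was 0.11 ± 0.07 (not called) and -0.39 in cytoplasm and -0.44 ± 0.08 and -0.99 in nuclei. AGO3 in that line was 0.34 ± 0.07 on counts and 0.05 (not called) on the TPM scale in cytoplasm and -0.30 ± 0.06 in nuclei, where the line labelled AGO1 knockout had -0.35 ± 0.06. The direction of AGO2 and AGO3 RNA in the multiple knockouts thus depended on fraction and scaling and does not check those labels, and genotypes below are as labelled. Of 6 epithelial markers 5 were present, with a summed level of 805 to 1326 TPM in cytoplasmic and 1024 to 2771 TPM in nuclear libraries, and VIL1 stayed under 1 TPM in every library. The markers moved with the lines in different ways. In AGO1/2 knockout cells EPCAM went from a mean of 142 to 44.1 TPM in cytoplasm and CDH1 from a mean of 12.3 TPM to between 0.681 and 1.78 TPM, whereas KRT8, KRT18 and KRT19 went from 498, 369 and 226 to 1212, 826 and 574 TPM in nuclei, and cytoplasmic KRT19 overlapped wild type (223 and 213 TPM). Their part in the results below was not tested. The 3 endothelial markers were under 1 TPM in every library, as were 3 of 4 fibroblast markers (all but COL1A1) and 3 of 4 leukocyte markers (all but CD68).

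In wild-type cells MYC was the most abundant member and 3 members were all but undetected. On the TPM scale, which corrects for transcript length, cytoplasmic RNA held 111 ± 8.34 TPM of MYC, 17.1 ± 0.496 of RNF43, 11.2 ± 0.958 of TCF7, 7.48 ± 3.75 of AXIN2, 3.13 ± 0.471 of ZNRF3, 1.08 ± 0.061 of NKD1 and 0.34 ± 0.148 of SP5 (mean ± SD, n = 3). Each of these levels was separate from its neighbours in the order, except that AXIN2 overlapped ZNRF3. Nuclear RNA had the same order but for AXIN2, which stood above TCF7 at 19.2 ± 7.15 against 7.96 ± 1.94 TPM (SD, n = 3). LEF1 was at 0 reads in 29 of 30 libraries, ASCL2 in 24 and LGR5 in 20, and no library held more than 4 reads of any of them. A count of 0 allows up to 3 reads, or 0.0385 to 0.153 on the CPM scale over these libraries, so lower levels were not detectable at this depth. This limit covers counting error only.

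The members moved in different directions in the knockout lines. In the lines labelled AGO1/2/3 and AGO1/2 knockout, SP5 and TCF7 rose and MYC fell in both fractions (TCF7 in AGO1/2/3 knockout cells on counts but not on the TPM scale), whereas RNF43 fell in the AGO1 and AGO2 lines, in which MYC was not called lower. In bulk RNA, fewer cells of a type and less RNA per cell cannot be told apart. In cytoplasmic RNA 2 of 7 tested members were called in AGO1 knockout cells, at an adjusted p of at most 0.05 in edgeR's quasi-likelihood test over all genes, and 3 of 7 in AGO2 knockout cells, all lower. Among all 17605 genes tested, 12.4% were called in the former (4.28% higher and 8.13% lower) and 16.1% in the latter (7.07% higher and 9.0% lower). In AGO1/2 knockout cells 4 of 7 members were called, 3 higher and 1 lower, beside 49.2% of all genes (23.9% higher and 25.4% lower). In AGO1/2/3 knockout cells it was again 4 of 7, 3 higher and 1 lower, beside 38.7% of all genes (18.6% higher and 20.0% lower). With 7 genes, 1 call is worth 14.3 percentage points, and the members' share lay 16.2, 26.8, 7.90 and 18.5 points above that of all genes in these 4 lines, so the counts are a description of these genes. On the TPM scale (limma) AGO1/2 knockout cells had 2 members higher and 2 lower, beside 7.70% and 49.9% of all genes. AGO1/2/3 knockout cells had 1 member higher and 1 lower on that scale, beside 8.11% and 37.8% of all genes.

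In nuclear RNA, where 18919 genes were tested, 4 of 7 members were called in AGO1 knockout cells (1 higher, 3 lower, beside 29.9% of all genes, 14.3% higher and 15.6% lower). The same count was found in AGO2 knockout cells (1 higher, 3 lower, beside 40.2%, with 20.2% higher and 19.9% lower). In AGO1/2 knockout cells 5 of 7 were called (3 higher, 2 lower, beside 67.6%, with 32.9% higher and 34.7% lower), and in AGO1/2/3 knockout cells 4 of 7 (3 higher, 1 lower, beside 58.6%, with 29.1% higher and 29.5% lower). The members' share differed from that of all genes by 27.3, 17.0, 3.88 and -1.44 points. On the TPM scale (limma) the AGO1/2/3 split of the members turned to 1 higher and 3 lower, beside 14.3% and 39.6% of all genes. The median log2 fold change of the 7 members in cytoplasmic RNA was -0.22 with AGO1, -0.44 with AGO2, 0.18 with AGO1/2 and 0.08 with AGO1/2/3 knockout, and that of all genes lay between -0.014 and -0.0012. In nuclear RNA the members' medians were -0.12, -0.24, 0.33 and 0.12 in the same order, beside -0.02 to -0.06 for all genes. The nuclear AGO1/2/3 median was -0.23 on the TPM scale, beside -0.16 for all genes. All 4 knockouts in a fraction share the same 3 wild-type libraries.

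**Figure D1:**
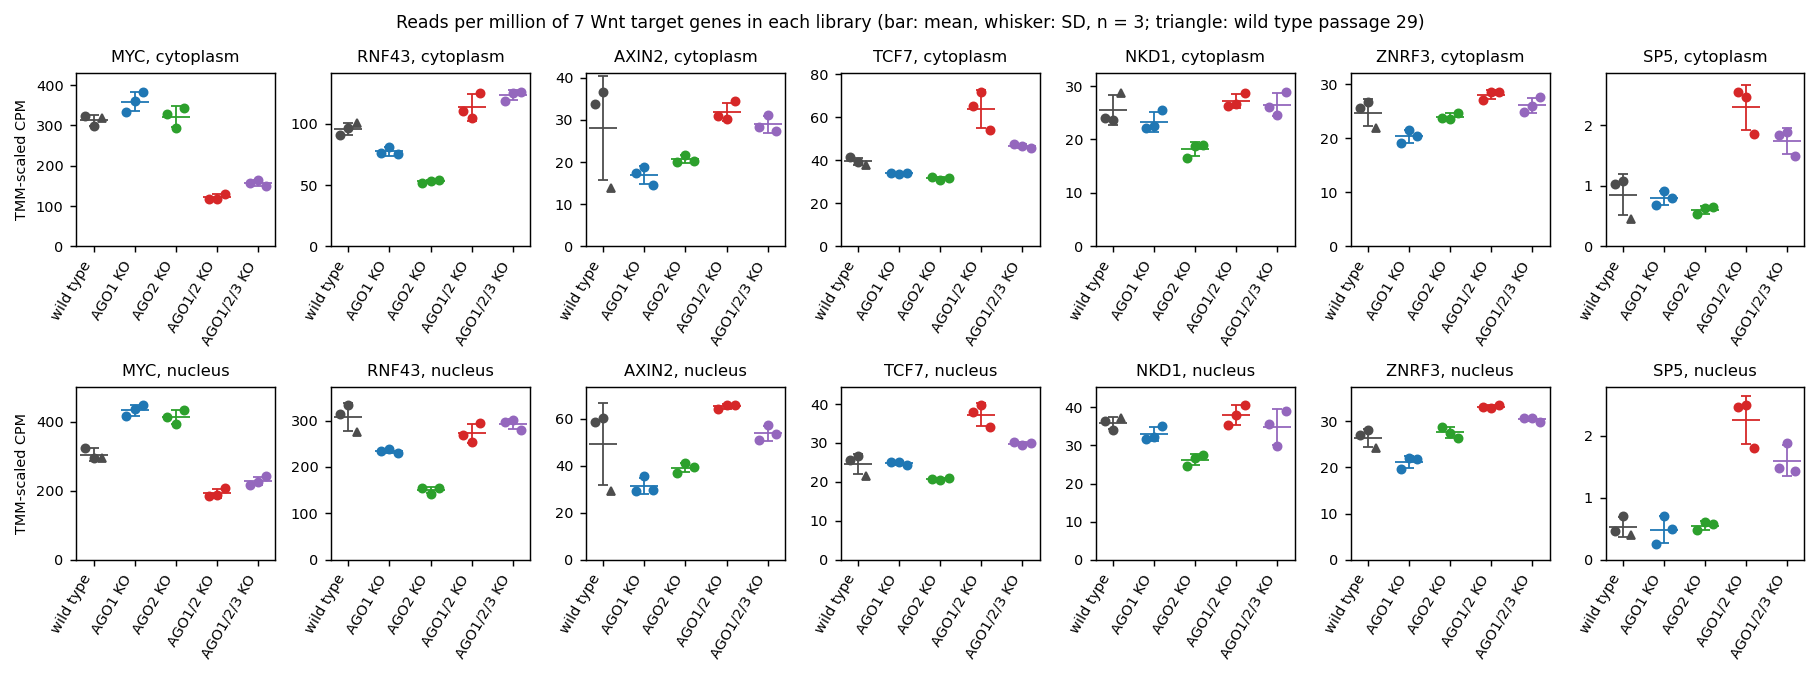
CPM after TMM scaling (linear axis from 0) of the 7 tested members in each of 30 libraries, by genotype, with cytoplasm above and nucleus below. Dots are libraries, bars means and whiskers SD (n = 3), and the triangle is the wild-type culture of passage 29, in which AXIN2 stood at 13.8 in cytoplasmic and 29.3 in nuclear RNA.

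MYC, a transcription factor that drives growth and cell division, showed the largest fall. Its cytoplasmic level was 323, 298 and 318 CPM (read counts relative to the library total after TMM scaling, compared only within a gene) in wild-type passages 27, 28 and 29. It was 117, 118 and 130 CPM in AGO1/2 knockout libraries and 157, 164 and 149 CPM in AGO1/2/3 knockout libraries. Every library of both lines lay below every wild-type library, and the 2 lines did not overlap each other. The log2 fold change was -1.36 ± 0.08 (SE, adjusted p = 5.8e-09), or 2.57-fold lower, in AGO1/2 knockout cells and -0.997 ± 0.075 (adjusted p = 1.7e-07) in AGO1/2/3 knockout cells. The single knockouts gave 334, 360 and 383 CPM for AGO1, all above wild type but not called (0.20 ± 0.07, adjusted p = 0.0949), and 329, 293 and 343 CPM for AGO2, which overlapped it.

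In nuclear RNA the order of MYC levels was alike at the lower end but not at the upper. Wild-type nuclei held 326, 295 and 296 CPM, AGO1/2 knockout nuclei 184, 187 and 207 CPM and AGO1/2/3 knockout nuclei 217, 225 and 242 CPM. The falls were smaller than in the cytoplasm, -0.66 ± 0.07 (adjusted p = 4.9e-07) and -0.42 ± 0.07 (adjusted p = 6.7e-05). AGO1 knockout nuclei held 416, 436 and 449 CPM and AGO2 knockout nuclei 413, 395 and 435 CPM. Both lay wholly above wild type, with log2 fold changes of 0.51 ± 0.07 (adjusted p = 9.1e-05) and 0.44 ± 0.07 (adjusted p = 1.4e-04). The nuclear AGO2 call was lost on the TPM scale (0.19). The 4 MYC falls held their call under every alternative tried, the leave-one-out fits included.

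SP5, a zinc-finger factor of the Sp family, was the member that rose most, from a low level. Wild-type cytoplasmic libraries held 1.02, 1.08 and 0.459 CPM, AGO1/2 knockout libraries 2.55, 2.47 and 1.86 CPM, and AGO1/2/3 knockout libraries 1.84, 1.89 and 1.5 CPM. No library of either knockout overlapped wild type, and the lowest wild-type value was that of passage 29. The log2 fold changes were 1.43 ± 0.25 (2.69-fold higher, adjusted p = 2.5e-04) and 1.03 ± 0.25 (adjusted p = 0.00435). In nuclear RNA SP5 rose from 0.458, 0.711 and 0.404 CPM to 2.46, 2.49 and 1.80 CPM in AGO1/2 knockout and 1.47, 1.88 and 1.43 CPM in AGO1/2/3 knockout libraries. These are changes of 2.10 ± 0.29 (adjusted p = 1.2e-05) and 1.60 ± 0.30 (adjusted p = 2.7e-04). The single knockouts were not called, with 0.531 to 0.919 CPM in cytoplasmic and 0.26 to 0.70 CPM in nuclear RNA. Without the wild-type library of passage 29 the cytoplasmic rises were 1.13 and 0.73, both still called, and SP5 was called lower in AGO2 knockout cells (-0.80 ± 0.21, adjusted p = 0.0174).

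TCF7, which encodes the TCF-1 factor, rose in both multiple knockouts and fell in AGO2 knockout cells. Its cytoplasmic level was 41.5, 39.0 and 38.0 CPM in wild-type, 65.5, 71.9 and 54.3 CPM in AGO1/2 knockout and 47.4, 46.5 and 45.9 CPM in AGO1/2/3 knockout libraries. The AGO1 knockout libraries held 33.8 to 34.3 CPM and the AGO2 knockout libraries 30.8 to 32.3 CPM. All 4 knockouts were separate from wild type, the multiple ones above it and the single ones below. The change was 0.69 ± 0.08 (adjusted p = 7.5e-06) in AGO1/2 and -0.32 ± 0.08 (adjusted p = 0.0151) in AGO2 knockout cells, while AGO1 missed the threshold (-0.21 ± 0.08, adjusted p = 0.101). In AGO1/2/3 knockout cells TCF7 was called higher on TMM-scaled counts (0.24 ± 0.08, adjusted p = 0.0309 in cytoplasmic and 0.28 ± 0.08, adjusted p = 0.0051 in nuclear RNA), but its sign turned on the TPM scale, to -0.02 and -0.0062. On that scale the median of all genes also lay lower, at -0.13 in cytoplasmic and -0.16 in nuclear RNA, and TCF7 was 0.11 and 0.15 above it. The cytoplasmic AGO1/2/3 call was lost in 5 of the 6 fits that left out 1 of the compared libraries. In nuclear RNA TCF7 rose by 0.60 ± 0.07 (adjusted p = 4.4e-06) in AGO1/2 knockout and fell by 0.24 ± 0.08 (log2 -0.24, adjusted p = 0.0205) in AGO2 knockout cells, a call that was lost in 4 of 6 leave-one-out fits and was -0.09 with coding transcripts only. The cytoplasmic AGO2 call was lost without AGO2 knockout passage 9 or wild-type passage 27.

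TCF7 makes proteins from an upstream start, with the amino-terminal stretch that binds beta-catenin, and from a downstream start without it. In the annotation the longer coding region starts at position 134114907 of chromosome 5 and has 384 codons, and the shorter starts at 134115938, has 269 codons and shares its reading frame over all 807 coding bases. Summed over transcripts with either start, the upstream form made 34.4 ± 3.72% of their TPM in wild-type cytoplasm and 32.3 to 36.9% on average in the 4 knockouts. The 5 genotypes overlapped, with exact permutation p-values of 0.5 to 1 (two-sided, 3 libraries against 3, for which 0.1 is the smallest possible). In AGO1/2 knockout cytoplasm the upstream form had a mean of 4.42 TPM against 3.77 TPM in wild type and the downstream form 8.48 against 7.23 TPM, and each overlapped wild type. In nuclei the upstream share was 39.5 ± 6.27% in wild-type, 36.0 ± 5.42% in AGO1, 29.8 ± 2.53% in AGO2, 29.9 ± 2.82% in AGO1/2 and 31.4 ± 8.32% in AGO1/2/3 knockout libraries (exact permutation p = 0.5, 0.1, 0.1 and 0.4 against wild type, n = 3 each). The downstream form had 2.07 to 2.85 TPM in wild-type and 5.41 to 7.08 TPM in AGO1/2 knockout nuclei and the upstream form 1.10 to 2.49 TPM and at least 2.53 TPM, both without overlap.

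The other TCF7 signal in the nucleus came from transcripts annotated with a retained intron. They made 40.9 ± 6.36% of TCF7 TPM in wild-type nuclei, 34.2 ± 1.43% with AGO1 knockout, 26.8 ± 4.83% with AGO2 knockout, 15.5 ± 2.4% with AGO1/2 knockout and 21.4 ± 3.33% with AGO1/2/3 knockout (SD, n = 3 each). The AGO2, AGO1/2 and AGO1/2/3 libraries all lay below wild type (exact permutation p = 0.1 for each, the smallest that 3 against 3 allows) and those of AGO1 overlapped it. In the cytoplasm the share was 1.45 to 1.77% on average in every genotype. For RNF43 the nuclear share was 5.75 ± 0.645% in wild-type, 2.48 ± 0.394% in AGO1/2 knockout and 7.03 ± 0.603% in AGO2 knockout libraries (SD, n = 3 each), the AGO1/2 libraries lying wholly below wild type and those of the other 3 lines overlapping it. For AXIN2 it was 9.61 ± 2.21% in wild-type and 5.59 ± 1.3% in AGO1/2 knockout nuclei, again without overlap, and the other 3 lines overlapped wild type. No test was made of these shares. Fraction markers moved as well: the ratio of nuclear to cytoplasmic TPM of MALAT1, a nuclear RNA, was 25.5 in wild-type and 12.3 to 13.0 in knockout cells, and that of GAPDH mRNA was 0.644 in wild-type and 1.79 in AGO1/2 knockout cells. The part of fraction purity in the retained-intron shares was not tested.

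**Figure D2:**
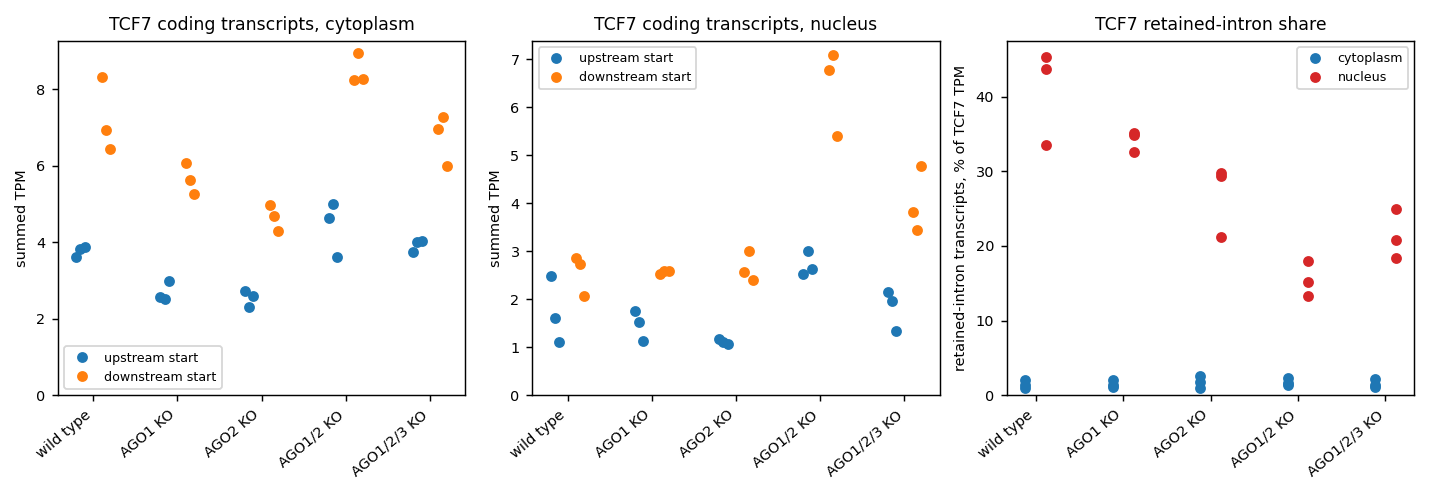
TCF7 transcripts by library. The left and middle panels give summed TPM (linear axis from 0) of coding transcripts with the upstream or downstream start in cytoplasm and nucleus, and the right panel gives retained-intron transcripts as a percentage of all TCF7 TPM, with nuclear values of 33.6 to 45.3% in wild-type and 13.3 to 18.0% in AGO1/2 knockout libraries.

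RNF43, a transmembrane ubiquitin ligase that removes Frizzled receptors, fell most in AGO2 knockout cells. In cytoplasmic RNA it stood at 90.9, 96.5 and 101 CPM in wild-type, 76.2, 81.6 and 75.1 CPM in AGO1 knockout and 51.6, 53.2 and 54.3 CPM in AGO2 knockout libraries. The 3 genotypes were separate from each other. The fall was 0.31 ± 0.07 on the log2 scale with AGO1 knockout (adjusted p = 0.0104) and 0.86 ± 0.07 with AGO2 knockout (log2 -0.86, adjusted p = 1.6e-06), and the AGO2 line was below the AGO1 line (-0.55 ± 0.07, adjusted p = 5.2e-05). Nuclear RNA gave the same order, with 314, 334 and 275 CPM in wild-type, 234, 239 and 230 CPM in AGO1 knockout and 154, 142 and 155 CPM in AGO2 knockout libraries, or -0.39 ± 0.07 (adjusted p = 0.00112) and -1.03 ± 0.07 (adjusted p = 2.1e-07).

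In the multiple knockouts RNF43 was called higher in cytoplasm and not in nuclei. Cytoplasmic RNA held 111, 105 and 126 CPM in AGO1/2 knockout and 119, 126 and 126 CPM in AGO1/2/3 knockout libraries, all above wild type, with changes of 0.24 ± 0.07 (adjusted p = 0.0102) and 0.36 ± 0.07 (adjusted p = 8.5e-04). The AGO1/2 rise turned to -0.20 on the TPM scale, where it lay at the median of all genes, also -0.20. The AGO1/2/3 rise was 0.06 on that scale and not called, with 17.0 to 18.3 TPM against 16.6 to 17.6 TPM in wild-type libraries. The AGO1/2 call was also lost with the compared groups alone and without AGO1/2 knockout passage 11. Nuclear RNA held 269, 254 and 295 CPM and 298, 301 and 280 CPM, both overlapping wild type, with changes of -0.17 ± 0.07 (adjusted p = 0.0482) and -0.07 ± 0.07 (adjusted p = 0.424). The former call was lost in 4 of 6 leave-one-out fits and with DESeq2 (-0.15). On the TPM scale (limma) the nuclear values were -0.31 with AGO1/2 and -0.39 with AGO1/2/3 knockout, the AGO1/2/3 value called lower. The medians of all genes there were -0.07 and -0.16.

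ZNRF3, the paralog of RNF43, fell with it on counts in AGO1 but not in AGO2 knockout cells. In nuclei of the multiple knockouts ZNRF3 was called higher on counts and RNF43 was not. In AGO1 knockout cells it was lower in both fractions, with 19.1 to 21.4 CPM against 21.9 to 26.7 CPM in wild-type cytoplasm (-0.28 ± 0.08, adjusted p = 0.0254) and 19.7 to 22.1 CPM against 24.3 to 28.0 CPM in nuclei (-0.32 ± 0.07, adjusted p = 0.0024). In AGO2 knockout cells, in which RNF43 fell most, ZNRF3 overlapped wild type in both fractions. On the TPM scale the 2 lines were alike in cytoplasm, at -0.28 with AGO1 and -0.31 with AGO2 knockout. The medians of all genes there were -0.08 and -0.13. In nuclei the TPM values were -0.40 and -0.13, beside -0.17 for all genes in both lines. ZNRF3 was higher in nuclei of AGO1/2 knockout cells, at 32.8 to 33.5 CPM (0.33 ± 0.07, adjusted p = 4.2e-04), which was 0.03 and not called with coding transcripts only. All 3 ZNRF3 transcripts are annotated as coding, so that alternative changed the genes used for scaling and not the reads of ZNRF3. In nuclei of AGO1/2/3 knockout cells, at 29.9 to 30.8 CPM, it was called higher on counts (0.20 ± 0.07, adjusted p = 0.0156) and was -0.01 on the TPM scale, 0.15 above the median of all genes there. The cytoplasmic call in AGO1 knockout cells was lost in 4 of the 6 fits that left out 1 of the compared libraries.

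NKD1, which antagonizes signaling through Dishevelled, was called on counts in AGO2 knockout cells and in no other line, and it fell there. It stood at 24.0, 23.6 and 28.7 CPM in wild-type and 16.6, 18.8 and 19.0 CPM in AGO2 knockout cytoplasm, without overlap (-0.49 ± 0.09, adjusted p = 0.00256). In nuclei it stood at 36.5, 34.0 and 37.2 CPM and at 24.6, 26.8 and 27.5 CPM (-0.45 ± 0.09, adjusted p = 0.00119). The AGO2 line was also below the AGO1 line, by 0.36 ± 0.09 (log2 -0.36, adjusted p = 0.00956) in cytoplasmic RNA. In the other 3 lines NKD1 ranged from 22.1 to 28.9 CPM in cytoplasm and from 29.8 to 40.6 CPM in nuclei and overlapped wild type. On the TPM scale NKD1 was also called lower in AGO1/2/3 knockout nuclei (-0.23, limma), beside a median of -0.16 for all genes. It stood there at 1.19 to 1.58 TPM, and at 1.39 to 1.67 TPM in AGO1 knockout nuclei, against 1.78 to 1.92 TPM in wild-type nuclei.

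**Figure D3:**
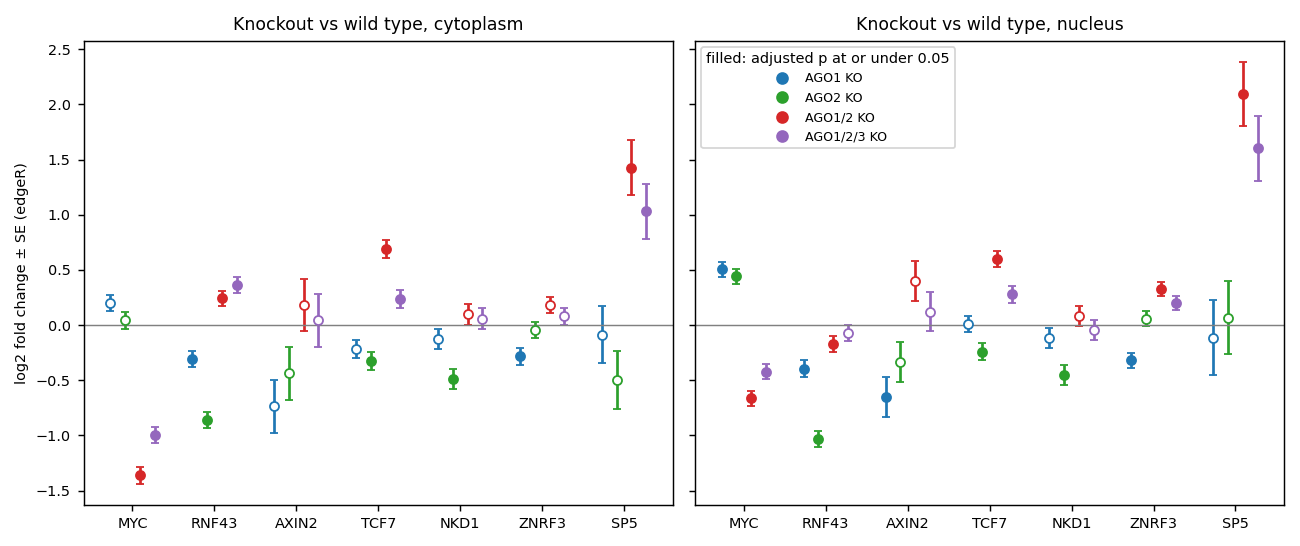
Log2 fold change ± SE of the 7 tested members in each knockout against wild type, from edgeR with 15 libraries a fraction, cytoplasm left and nucleus right. Filled points passed an adjusted p of 0.05, and the extremes are MYC at -1.36 in cytoplasm and SP5 at 2.10 in nuclei, both in AGO1/2 knockout cells.

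AXIN2, a common readout of beta-catenin activity, gave results that changed with 1 wild-type culture. Cytoplasmic RNA held 33.8 and 36.7 CPM in passages 27 and 28 and 13.8 CPM in passage 29. Nuclear RNA of the same passages held 58.6, 60.4 and 29.3 CPM, so the culture of passage 29 was low in both fractions. AGO1 knockout libraries held 17.5, 18.7 and 14.5 CPM in cytoplasm and 29.2, 35.5 and 29.7 CPM in nuclei, and AGO2 knockout libraries 20.1, 21.7 and 20.4 CPM and 37.1, 41.1 and 39.4 CPM. Both single knockouts lay below passages 27 and 28. All AGO2 libraries lay above passage 29, as did the AGO1 libraries except that of passage 6 in nuclei (29.19 against 29.25 CPM).

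With all libraries AXIN2 was called in 1 of 8 comparisons, lower in nuclei of AGO1 knockout cells (-0.65 ± 0.18, adjusted p = 0.0146), and the cytoplasmic value was -0.73 ± 0.24 (adjusted p = 0.0608). Without passage 29 the AGO1 differences were -1.06 ± 0.10 (adjusted p = 1.0e-05) in cytoplasm and -0.91 ± 0.08 (adjusted p = 1.7e-06) in nuclei. The AGO2 differences went from -0.44 ± 0.24 and -0.34 ± 0.18 to -0.76 ± 0.10 (adjusted p = 1.4e-04) and -0.58 ± 0.08 (adjusted p = 3.6e-05), which were then called. In contrast, leaving out passage 27 or 28 ended the nuclear AGO1 call, at -0.49 and -0.48, as did leaving out AGO1 knockout passage 6 or 8, at -0.60 and -0.61.

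AGO1/2 knockout libraries held 31.0, 30.2 and 34.4 CPM of AXIN2 in cytoplasm and 64.2, 65.8 and 65.9 CPM in nuclei. AGO1/2/3 knockout libraries held 28.3, 31.1 and 27.4 CPM in cytoplasm and 50.9, 57.2 and 53.6 CPM in nuclei. With all libraries the 4 differences from wild type were 0.18 ± 0.24, 0.40 ± 0.18, 0.04 ± 0.24 and 0.12 ± 0.18, none of them called. Without passage 29 they were -0.14 and 0.16 in AGO1/2 and -0.28 and -0.12 in AGO1/2/3 knockout cells, of which the cytoplasmic AGO1/2/3 value was called (adjusted p = 0.0296).

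Passage 29 was not low in all target genes. On log2 CPM (0.1 added), against the mean of passages 27 and 28, AXIN2 was at -1.34 in cytoplasm and -1.02 in nuclei, SP5 at -1.04 and -0.41 and ZNRF3 at -0.25 and -0.18. MYC was at 0.04 and -0.07 and NKD1 at 0.27 and 0.08, while DKK1, a secreted Wnt antagonist that is itself a target, was at 0.77 in both. Of the 16696 genes tested in both fractions, 45 were lower by 1 or more in both (0.27%), AXIN2 among them, and 329 were higher by as much (1.97%). Counts of called members without the passage 29 library were 3 of 7 with AGO1, 5 with AGO2, 4 with AGO1/2 and 4 with AGO1/2/3 knockout in cytoplasm, beside 10.2%, 15.5%, 50.5% and 44.1% of all genes, and 4, 5, 5 and 4 in nuclei, beside 28.0%, 40.3%, 66.9% and 59.9%. The 4 of cytoplasmic AGO1/2/3 were then 2 higher and 2 lower, with AXIN2 called and TCF7 not.

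**Figure D4:**
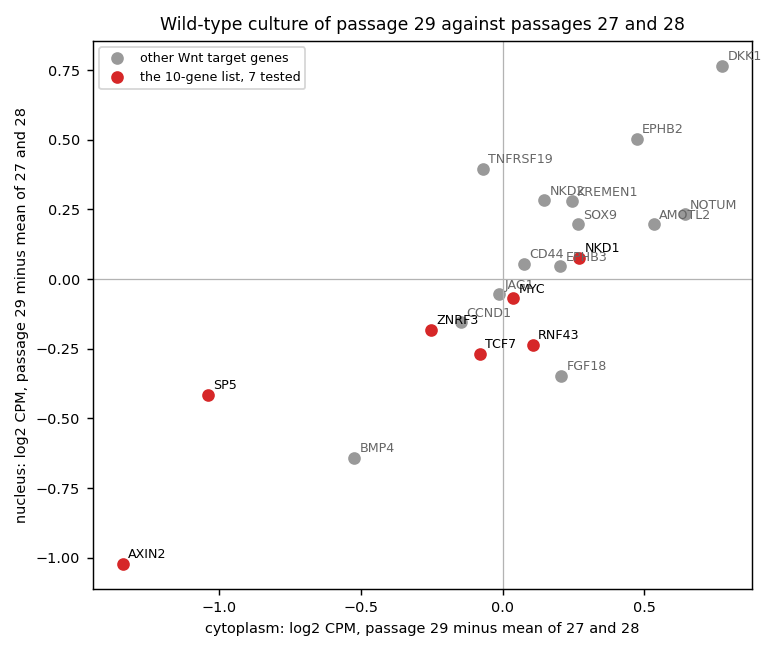
Difference in log2 CPM (0.1 added) between the wild-type culture of passage 29 and the mean of passages 27 and 28, cytoplasm on the x axis and nucleus on the y axis, for the 7 tested members and the other Wnt target genes tested in both fractions. AXIN2 lies at -1.34 and -1.02, and DKK1 at the opposite corner at 0.77 on both axes.

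The genes whose pattern was most like that of AXIN2 were KCNMB4 (r = 0.985), ZBTB18 (0.982), DUSP8 (0.98), SMAD7 (0.979) and TSPAN18 (0.977), by Pearson's r of mean log2 CPM over 10 groups centred within each fraction, among 16744 other genes tested in both fractions. The 10 points are means that share wild-type cultures, passage 29 included. ZNRF3 ranked 84 on this measure (r = 0.936) and SP5 1019 (r = 0.834), whereas MYC lay near the other end (r = -0.904). TCF7 (0.803), RNF43 (0.601) and NKD1 (0.553) lay between.

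Between the multiple knockouts, 2 of 7 members differed in cytoplasm and 1 of 7 in nuclei, beside 4.95% and 3.48% of all genes. TCF7 was lower in AGO1/2/3 than in AGO1/2 knockout cells, by 0.46 ± 0.08 (log2 -0.46, adjusted p = 0.0179) in cytoplasm and 0.32 ± 0.07 (log2 -0.32, adjusted p = 0.0356) in nuclei, and MYC was higher in cytoplasm (0.36 ± 0.07, adjusted p = 0.0248). These calls were unstable: all of them were lost when the fit held the compared groups alone, and both cytoplasmic calls when AGO1/2 knockout passage 9 or 10 or AGO1/2/3 knockout passage 11 or 12 was left out. Between the single knockouts, 3 of 7 members differed in cytoplasm and 4 of 7 in nuclei, beside 26.1% and 26.4% of all genes. Besides RNF43 and NKD1, ZNRF3 was higher in AGO2 than in AGO1 knockout cells (0.24 ± 0.08, adjusted p = 0.031 in cytoplasm, which turned to -0.03 on the TPM scale, and 0.38 ± 0.07, adjusted p = 5.8e-04 in nuclei), and TCF7 was lower in nuclei (-0.25 ± 0.08, adjusted p = 0.0225).

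Nuclear and cytoplasmic RNA were then compared within each genotype, in 1 fit over the 30 libraries and 20104 genes. In wild-type cells 5 of 7 members were called (1 higher in the nucleus, 4 lower), beside 76.8% of all genes. The counts were 4 of 7 with AGO1 (beside 74.5%), 3 with AGO2 (73.4%), 5 with AGO1/2 (68.6%) and 4 with AGO1/2/3 knockout (70.2%). RNF43 was the member most enriched in nuclear RNA, by 1.246 ± 0.078 in wild-type (adjusted p = 1.4e-13), 1.17 ± 0.08 in AGO1, 1.07 ± 0.08 in AGO2, 0.75 ± 0.08 in AGO1/2 and 0.73 ± 0.08 in AGO1/2/3 knockout cells. TCF7 was lower in nuclear RNA in all 5, by -1.12 ± 0.08 in wild-type cells (adjusted p = 5.1e-12) and by -0.88 to -1.29 in the knockouts. These directions were the same with TMM, with library totals and on the TPM scale. With passage as a replicate block the counts were 6, 6, 5, 6 and 6 of 7, from wild type to AGO1/2/3, beside 80.3%, 78.9%, 77.8%, 73.6% and 75.5% of all genes, and AXIN2 was among those called in all 5.

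The other members' directions between fractions depended on scaling. SP5 was lower in wild-type nuclear RNA (-1.13 ± 0.32, adjusted p = 0.00233), a call lost with library totals (-0.62) and on the TPM scale, and in AGO1/2/3 and AGO1/2 knockout cells its sign turned on the TPM scale. MYC was lower in wild-type nuclei on TMM-scaled counts (-0.47 ± 0.07, adjusted p = 1.9e-06), and the difference was 0.05 with library totals and 0.07 on the TPM scale. ZNRF3 was lower by 0.34 ± 0.08 (log2 -0.34, adjusted p = 2.9e-04) in wild-type nuclei and was 0.18 with library totals. With library totals the median of all genes moved to between 0.45 and 0.58 in the 5 genotypes, from between 0.03 and 0.09 with TMM. Nuclear AXIN2 exceeded cytoplasmic AXIN2 by 0.52 ± 0.23 (adjusted p = 0.0454) in AGO1/2 knockout cells, a call that was lost in each of the 6 fits without 1 library of that line, in which the value was 0.48 to 0.585. On the TPM scale it was 1.69 ± 0.25 (adjusted p = 1.5e-06), with 21.2 TPM in nuclear and 5.89 TPM in cytoplasmic RNA, beside a median of 0.48 for all genes, and the nuclear TPM of AXIN2 lay above the cytoplasmic ones in every genotype without overlap.

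**Figure D5:**
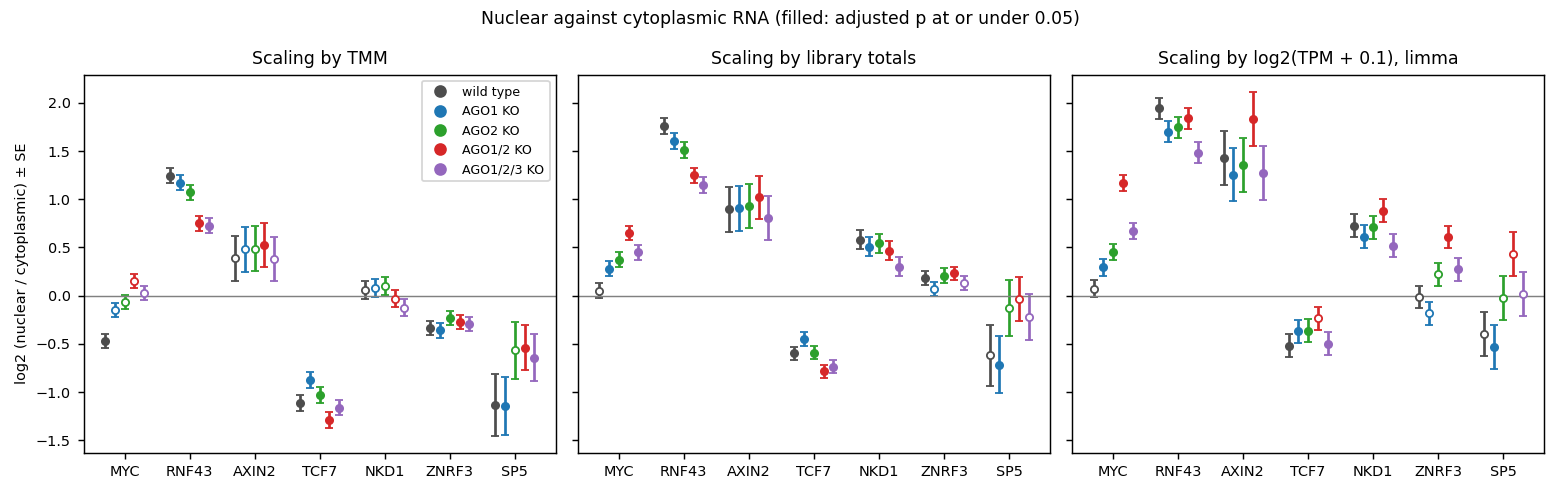
Log2 ratio of nuclear to cytoplasmic RNA ± SE of the 7 tested members in 5 genotypes (colours), scaled by TMM (left), by library totals (middle) and as TPM with limma (right). Filled points passed an adjusted p of 0.05. RNF43 lies above 0 and TCF7 below 0 in all panels, while MYC in wild-type cells goes from -0.47 to 0.05 and 0.07.

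The effect of a knockout differed between the fractions for MYC and RNF43. In a test of the difference itself, 2 of 7 members were called for AGO1/2 and 2 of 7 for AGO1/2/3, beside 36.5% and 22.7% of all genes. The fall of MYC was smaller in nuclei by 0.62 ± 0.10 (adjusted p = 3.3e-05) and 0.49 ± 0.10 (adjusted p = 9.5e-04) on the log2 scale. For RNF43 the nuclear change was below the cytoplasmic one by 0.50 ± 0.11 (log2 -0.50, adjusted p = 7.5e-04) and 0.52 ± 0.11 (log2 -0.52, adjusted p = 0.00109). On the TPM scale the AGO1/2 value of RNF43 was -0.11 and not called. For AGO2 1 of 7 was called (MYC, 0.40 ± 0.10, adjusted p = 0.0195), beside 5.76% of all genes, and it was lost without both wild-type libraries of passage 29. For AGO1 none of 7 was called, beside 0.662%, with 133 genes called in all. At an unadjusted p under 0.05 in edgeR stood 2 members, MYC and TCF7, beside 2833 of all 20104 genes. With passage as a replicate block MYC was called for AGO1 as well (0.32 ± 0.07, adjusted p = 0.0173), beside 6.27% of all genes, and the share of all genes for AGO2 was 18.0%, with MYC again the member called. For AGO1/2 and AGO1/2/3 the members called stayed MYC and RNF43, beside 46.4% and 34.9%. The nuclear to cytoplasmic TPM ratio of GAPDH was 0.644 in wild-type cells and 0.804 and 0.833 in the single knockouts. It was 1.79 with AGO1/2 and 1.05 with AGO1/2/3 knockout. The MALAT1 ratio did not follow the same lines. It fell from 25.5 in wild-type cells to between 12.3 and 13.0 in every knockout line, that of AGO1 included. The part of these ratios in the fraction differences was not tested.

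The rest of the pathway was read from 5 lists of 99 genes. Of 18 other Wnt target genes, 14 were tested, and 6 were lower and none higher in cytoplasmic RNA of AGO1 knockout cells, 7 lower and none higher with AGO2, 5 higher and 7 lower with AGO1/2, and 6 higher and 7 lower with AGO1/2/3 knockout, beside 12.4%, 16.1%, 49.2% and 38.7% of all genes. The changes in the last were led by TNFRSF19, a receptor, which fell from 1.26 to 1.90 CPM in wild-type to 0.144 to 0.243 CPM (-2.93 ± 0.26, adjusted p = 7.5e-07). FGF18, a growth factor, rose from 0.606 to 0.757 CPM to 3.67 to 4.5 CPM (2.56 ± 0.16, adjusted p = 2.0e-08). JAG1, a Notch ligand, fell from 104 to 117 CPM to 26.8 to 33.2 CPM (-1.91 ± 0.16, adjusted p = 3.8e-07). DKK1 fell from 111 to 210 CPM to 46.2 to 62.0 CPM (-1.55 ± 0.26, adjusted p = 2.7e-04). The list's median of -0.29 stood beside -0.01 for all genes. In nuclei of that line it was 0.32 beside -0.03, with 7 higher and 4 lower, beside 29.1% and 29.5% of all genes.

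Of 42 genes for ligands, their secretion and receptors, 33 were tested, and 7 rose and 7 fell in cytoplasmic RNA of AGO1/2/3 knockout cells, beside 18.6% and 20.0% of all genes. In nuclei 14 rose and 4 fell, beside 29.1% and 29.5% of all genes. Among ligands and their enhancers, RSPO1 rose from 0.0731 to 0.269 CPM to 0.996 to 1.29 CPM (2.64 ± 0.39, adjusted p = 1.7e-04). WNT7A rose from 0.0898 to 0.275 CPM to 0.78 to 0.796 CPM (2.07 ± 0.30, adjusted p = 8.9e-05). The wild-type levels of both lay near the detection limit of 3 reads, so the size of these changes rests on few reads. WNT9A rose from 1.80 to 5.09 CPM to 6.98 to 7.61 CPM (1.20 ± 0.26, adjusted p = 0.0021). FZD8, a receptor, fell from 0.17 to 0.275 CPM to 0.0131 to 0.121 CPM (-1.86 ± 0.61, adjusted p = 0.026), near the detection limit. Of 8 secreted antagonists only DKK3 was tested in cytoplasm, and it rose from 0.0225 to 0.0731 CPM to 0.197 to 0.242 CPM (2.0 ± 0.50, adjusted p = 0.0053), also near that limit. RSPO1 binds LGR receptors and blocks RNF43 and ZNRF3. Of these receptors, LGR5 was at or near 0 in these libraries, whereas LGR4 and LGR6 passed the low-count filter in both fractions.

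Of 17 genes of the destruction complex and Dishevelled, 16 were tested in cytoplasm, and 7 rose and 4 fell in AGO1/2/3 knockout cells, where 38.7% of all genes were called. APC2 rose (0.996 ± 0.211, adjusted p = 0.0018), while TNKS2, a tankyrase that turns over AXIN proteins, fell by 0.57 ± 0.07 (log2 -0.57, adjusted p = 1.3e-05). APC, the scaffold most often lost in colon cancer, fell from 55.1 to 59.2 CPM to 34.7 to 43.4 CPM (-0.56 ± 0.08, adjusted p = 4.6e-05), and USP7, a deubiquitinase, fell as well (-0.52 ± 0.10, adjusted p = 0.0011). In nuclei 10 of 17 rose and none fell, beside 29.1% and 29.5% of all genes. Of 14 nuclear effectors, 13 were tested. In nuclei 8 rose and 3 fell, beside the same shares of all genes. In cytoplasm 3 rose and 5 fell, beside 18.6% and 20.0% of all genes. PYGO1 (-1.07 ± 0.18), CHD8 (-0.75 ± 0.14) and TLE3 (-0.59 ± 0.08) fell, with adjusted p-values of 2.8e-04, 9.2e-04 and 4.9e-05, and BCL9L rose (0.35 ± 0.10, adjusted p = 0.011, and 0.11, not called, on the TPM scale).

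The split between higher and lower calls in AGO1/2/3 knockout cells moved on the TPM scale, on which 8.11% of all genes were called higher and 37.8% lower in cytoplasm and 14.3% and 39.6% in nuclei. There the other Wnt target genes had 3 higher and 8 lower in cytoplasm and 6 and 5 in nuclei, and the ligands, secretion and receptors 5 and 11, then 11 and 7. The destruction complex and Dishevelled had 2 higher and 7 lower in cytoplasm and 4 and 5 in nuclei, and the nuclear effectors 0 and 7, then 2 and 3. The 7 tested members had 1 higher and 1 lower in cytoplasm and 1 and 3 in nuclei.

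CTNNB1, which encodes beta-catenin, was lower in cytoplasm and, on counts, higher in nuclei of the multiple knockouts. In cytoplasm it stood at 294, 296 and 272 CPM in wild-type and 171, 140 and 169 CPM in AGO1/2 knockout libraries, without overlap (-0.84 ± 0.10, adjusted p = 1.1e-05), and at 245, 258 and 194 CPM in AGO1/2/3 knockout libraries (-0.31 ± 0.10, adjusted p = 0.028). In nuclei all 4 knockouts lay above wild type, which held 379, 360 and 321 CPM, with changes of 0.37 ± 0.08, 0.45 ± 0.08, 0.43 ± 0.08 and 0.49 ± 0.08 with AGO1, with AGO2, with AGO1/2 and with AGO1/2/3 knockout. On the TPM scale these were 0.09, 0.13, 0.32 and 0.20, of which the AGO1/2 value was called (adjusted p = 0.0198, limma). TCF7L2, the TCF factor abundant in colon epithelium, was called in neither multiple knockout in cytoplasm (-0.26 ± 0.11 and 0.11 ± 0.11) and was higher in nuclei of AGO2 and AGO1/2/3 knockout cells (0.32 ± 0.09 and 0.36 ± 0.09). On the TPM scale the nuclear values turned to -0.11 and -0.14, neither called, and the cytoplasmic AGO1/2 value was -0.65 and called. Beta-catenin protein was not measured here.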

How the data were processed

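Cytoplasmic and nuclear RNA of 30 libraries was analysed, and the 8 eCLIP samples were not analysed here. Per the labels and the study's methods, the authors removed ribosomal RNA, prepared strand-specific libraries, read both ends, mapped to hg38 by STAR and estimated transcript abundance by Salmon (STAR 2.5.3a and Salmon 0.11.0 in the submitters' processing notes, while the methods name other versions). The estimated counts, as deposited, are reads per transcript, not scaled. The authors' TPM values, deposited beside them, divide those counts by effective length and scale each library to the same total. Transcript and effective lengths were also deposited.

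Transcripts were matched to GENCODE 44 by identifier without version (196040 of 200401, with 2.23 to 4.01% of reads unmatched and left out), summed per gene and rounded. All genes were tested by edgeR 4.0.16 under R 4.3.3 (TMM, filterByExpr with a minimum count of 10, quasi-likelihood test, Benjamini-Hochberg adjustment). Knockout comparisons used 15 libraries of a fraction, and fraction comparisons and their differences all 30. SE is the log2 fold change divided by the square root of F. In simulated data for the cytoplasmic AGO1/2/3 comparison on 17605 genes, 68% of genes changed by 1 and 91% changed by 2 (log2) were recovered. The nuclear AGO1/2/3 comparison gave 73% and 92%. Recovery was 66% and 84% between fractions in wild-type cells and 59% and 82% for the AGO1/2/3 fraction difference. False calls numbered 4 in each knockout comparison and 9 in each of the other 2. Alternatives were DESeq2 1.42.0, limma 3.58.1 on log2(TPM + 1) and log2(TPM + 0.1), RLE factors, library totals, no filter, length-scaled counts, coding transcripts only, the compared groups alone, a replicate block and leaving out each library. Tables and figures were made in Python 3.11.15 with pandas 2.3.3, numpy 2.4.6 and matplotlib 3.10.9.

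The members and lists were chosen with earlier results of these data known. Named from each list were up to 4 genes with the largest change among those called in cytoplasmic AGO1/2/3 knockout cells, with CTNNB1, APC and TCF7L2 always named. The replicate number is the passage. Nuclear and cytoplasmic deviations of the same passage correlated at 0.354, 0.354 and 0.649 in wild-type cells. In the knockouts they correlated at 0.004 to 0.499, and at least 1 pair of each line was under 0.1. The main tests between fractions and of fraction differences did not use this pairing. It entered only in the alternative with passage as a replicate block. The labels do not say that nuclei and cytoplasm of a passage came from 1 dish, and libraries of 1 line measure the spread between passages only.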

Additional observations from a re-analysis of the deposited data

Results flagged for a closer look

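Among the members, CTNNB1 and APC, the effect of a knockout differed between the fractions for 4 genes, by edgeR's test of the difference over all genes. That test called 5.76% of all genes for AGO2, 36.5% for AGO1/2 and 22.7% for AGO1/2/3. Further genes of the pathway lists were called as well and are not named here. A positive value means that the nuclear change lies above the cytoplasmic one, on the log2 scale. MYC had values of 0.40 (AGO2, adjusted p = 0.0195), 0.62 (AGO1/2, adjusted p = 3.3e-05) and 0.49 (AGO1/2/3, adjusted p = 9.5e-04). RNF43 had values of -0.50 (AGO1/2, adjusted p = 7.5e-04) and -0.52 (AGO1/2/3, adjusted p = 0.00109). CTNNB1 had 1.20 (adjusted p = 3.1e-07) and 0.71 (adjusted p = 4.8e-04), and APC 0.48 (adjusted p = 0.00141) and 0.43 (adjusted p = 0.00598), for AGO1/2 and AGO1/2/3. The AGO2 value of MYC lost its call without cytoplasmic AGO2 knockout passage 9 (0.34), without nuclear AGO2 knockout passage 10 (0.37) and without both wild-type libraries of passage 29. The ratio of nuclear to cytoplasmic GAPDH TPM rose from 0.644 in wild-type to 1.79 in AGO1/2 and 1.05 in AGO1/2/3 knockout cells. That of ACTB rose from 2.71 to 7.06 and 4.87 in the same order. The part of these ratios in the fraction differences was not tested. Groups of 3 libraries were not tested for single outlying samples.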

How the results depend on the processing

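Of the tests of single genes over the alternatives, 899 kept direction and side of the threshold, 133 lost the call, 12 gained it and 44 changed sign. The causes were not tested. Counts of called members changed as follows. In cytoplasm the AGO1 count went from 2 to 1 with length-scaled counts and with the compared groups alone, the AGO1/2/3 count from 4 to 2 on both TPM scales, and AGO1/2/3 against AGO1/2 from 2 to 1 on both TPM scales and to 0 with the compared groups alone. In nuclei AGO1/2/3 against AGO1/2 went from 1 to 0 with length-scaled counts and the compared groups alone and to 2 with TPM + 1 and DESeq2, and AGO2 against AGO1 from 4 to 1 with TPM + 1 and 2 with TPM + 0.1. Between fractions the AGO2 count went from 3 to 6 with library totals and to 5 on both TPM scales, with coding transcripts and with the compared groups alone. The AGO2 fraction difference went from 1 to 0 with library totals, TPM + 0.1, coding transcripts, the compared groups alone and, an alternative chosen after seeing the data, without both wild-type libraries of passage 29.

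With the replicate block the AGO2 count between fractions was 5, the AGO1 fraction difference 1, and the wild-type count 6, and no other count of members moved by over 1.5 times. All genes with a fraction difference went under the block from 133 to 1261 for AGO1, 1158 to 3623 for AGO2 and 4567 to 7011 for AGO1/2/3.

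Leaving out 1 library gave 1 to 3 members in cytoplasm for AGO1, 2 to 5 for AGO2, 3 to 5 for AGO1/2, 3 to 4 for AGO1/2/3, 0 to 3 for AGO1/2/3 against AGO1/2 and 1 to 3 for AGO2 against AGO1. In nuclei it gave 3 to 4, 3 to 5, 4 to 5, 4 to 4, 0 to 2 and 2 to 3. Between fractions it gave 5 to 6 in wild type, 4 to 5, 2 to 3, 3 to 5 and 3 to 4, and for fraction differences 0 to 0, 0 to 1, 2 to 3 and 2 to 2. All genes called ranged from 1219 to 2317 (AGO1), 1689 to 2770 (AGO2) and 5 to 2312 (AGO1/2/3 against AGO1/2) in cytoplasm, 31 to 3153 (the last) in nuclei, and 51 to 281 (AGO1) and 617 to 1466 (AGO2) for fraction differences.

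All genes called were fewer with the compared groups alone, at 832 (AGO1), 1348 (AGO2) and 1 (AGO1/2/3 against AGO1/2) in cytoplasm, 3747 (AGO1) and 113 (AGO1/2/3 against AGO1/2) in nuclei, and 31 (AGO1) and 340 (AGO2) for fraction differences. On TPM + 1 and TPM + 0.1 they were 5090 and 4983 (cytoplasmic AGO2), 2297 and 2178 (nuclear AGO1/2/3 against AGO1/2), 2684 and 2824 (nuclear AGO2 against AGO1), 1488 and 561 (AGO1 fraction difference) and, with TPM + 1, 2582 (AGO2 fraction difference). Coding transcripts alone, with fewer genes tested, gave 8487 (nuclear AGO1/2), 125 (nuclear AGO1/2/3 against AGO1/2), 9480, 9205, 9119, 8894 and 8662 between fractions, and 536 and 4638 (AGO2 and AGO1/2 fraction differences). DESeq2 gave 2117 and 1967 for AGO1/2/3 against AGO1/2 and 510 for the AGO1 fraction difference, length-scaled counts 539 and 245 for AGO1/2/3 against AGO1/2, no filter 1272 for it in nuclei and 606 for the AGO2 fraction difference, and RLE and library totals 271 and 354 for the AGO1 fraction difference.

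Changes of sign on TPM + 1 and TPM + 0.1 were -0.20 and -0.2118 (RNF43), -0.1784 and -0.1792 (AXIN2) for cytoplasmic AGO1/2, -0.0237 and -0.0254 (TCF7), -0.0914 and -0.0787 (AXIN2) for cytoplasmic AGO1/2/3, -0.0062 and -0.0037 (TCF7), -0.2319 and -0.2399 (AXIN2), -0.0107 and -0.0119 (ZNRF3) for nuclear AGO1/2/3, and -0.0332 and -0.0463 (ZNRF3) for cytoplasmic AGO2 against AGO1. Between fractions they were 0.0734 and 0.074 (MYC, wild type), 0.1651 and 0.2222 (ZNRF3, AGO2), 0.4714 and 0.6072 (ZNRF3, AGO1/2), 0.2077 and 0.274 (ZNRF3, AGO1/2/3), 0.2193 and 0.4343 (SP5, AGO1/2) and 0.006 and 0.0141 (SP5, AGO1/2/3). With library totals they were 0.0523 (MYC, wild type) and, for ZNRF3, 0.1832, 0.0685, 0.209, 0.2301 and 0.1278 in wild type and the 4 lines. Coding transcripts gave -0.0906 (AXIN2) and -0.0153 (ZNRF3) in nuclear AGO1/2/3, and 0.1111, 0.0557 and 0.0043 for ZNRF3 between fractions in wild type, AGO2 and AGO1/2/3, and length-scaled counts -0.0372 (AXIN2, nuclear AGO1/2/3). Leave-one-out values of AXIN2 ran from -0.1428 to 0.4239 and -0.2835 to 0.2828 (cytoplasmic AGO1/2, then AGO1/2/3) and from -0.1188 to 0.31 (nuclear AGO1/2/3). Calls in the knockouts were higher in 34.5 to 50.3% with TMM and in 5.90 to 42.7% with TPM + 1, and calls between fractions in 51.4 to 54.2% and 75.2 to 93.6%, with 73.1 to 79.0% for library totals. Depth limits SP5, with 0.26 to 2.55 CPM, most among the tested members.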
